A study of Homo sapiens with 9 samples.

Results

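G1 cyclins, their kinases and the inhibitors of these kinases were examined in U251 cells, an established human glioblastoma line, after knockdown of PTBP1, an RNA-binding protein that represses neuronal exons. The 10 genes were the D cyclins CCND1, CCND2 and CCND3, the E cyclins CCNE1 and CCNE2, the kinases CDK4 and CDK6, and the CIP/KIP inhibitors CDKN1A (p21), CDKN1B (p27) and CDKN1C (p57). They were chosen by symbol, with earlier results of these data known, and each matched 1 of the 22295 entries of the expression table. The 9 RNA-seq libraries fall into 3 groups of 3, namely sh-Luci-3d (control sh-RNA against luciferase, day 3 after infection), sh-Ptbp1-3d (sh-RNA against PTBP1, day 3) and sh-Ptbp1-7d (the same sh-RNA, day 7). Every group had received a lentivirus that also carries M-cherry, and was moved on day 2 to a neuronal induction medium that holds forskolin and dorsomorphin. The whole infected culture of 1 cell line was sequenced, and no sh-Luci library of day 7 was analysed here. Each comparison with sh-Ptbp1-7d therefore contains the added days in that medium, which cannot be told apart from the longer knockdown. Nothing states that replicates were separate cultures, so the p-values measure the spread between these libraries only.

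A cell in G1 phase commits to DNA replication through this set of proteins. D cyclins bind CDK4 and CDK6, E cyclins bind CDK2, and both kinase complexes phosphorylate the RB family of pocket proteins, which releases E2F transcription factors and their S phase genes. CIP/KIP inhibitors block the CDK2 complexes and also take part in the assembly of D cyclins with CDK4 and CDK6. p21 and p27 are both known to accumulate in cells that leave the cycle, and D cyclins are known to answer to growth factor signals.

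Values are FPKM (fragments normalised to transcript length and to the fragments mapped in each library), which allows levels to be compared between genes. Differences were tested with limma on log2(FPKM + 0.1) over 15551 genes (those averaging 0.1 FPKM or more), in 1 model of the 9 libraries. The test was passed at a Benjamini-Hochberg FDR under 0.05 between the day 3 groups and under 0.01 where sh-Ptbp1-7d was compared. A gene passed both thresholds when its fold change was also above 2. All 10 genes entered the fit, but CCND2 did so through 1 library alone. PTBP1 itself stood at 115.7 ± 7.58 FPKM in sh-Luci-3d, 63.9 ± 2.67 in sh-Ptbp1-3d and 50.5 ± 0.645 in sh-Ptbp1-7d (SD, n = 3 each), 55.2% and 43.6% of the control. Of 7 glioma cell markers CHI3L1 was listed at 0 in every library, and SOX2 was at 94.6 to 149.1 FPKM. The 2 most abundant at day 3 fell from sh-Ptbp1-3d to sh-Ptbp1-7d. VIM went from 4381 to 1169 FPKM (log2 fold change -1.91, limma adjusted p = 9.79e-08) and CD44 from 165.6 to 62.3 (-1.41, adjusted p = 1.12e-06). Of the 6 tested, 1 passed in the other direction, S100B, which rose from 0.115 to 0.797 FPKM (2.08, adjusted p = 0.00202). SOX2, NES and GFAP did not pass (0.22, -0.35 and -0.49, adjusted p = 0.0733, 0.086 and 0.618). Against sh-Luci-3d SOX2 rose by 0.46 (adjusted p = 0.00184). In bulk RNA, fewer cells of a kind and less RNA per cell cannot be told apart. The sequencing depth is unknown, and the smallest p that exact permutation of 3 against 3 libraries allows is 0.1. A pair of libraries needs care. The library sh-Ptbp1-3d replicate 3 held the neuronal transcripts STMN2, DCX and ELAVL4, though not all neuronal markers, at levels far above those of the others. Without sh-Luci-3d replicate 3 the genes past both thresholds between the day 3 groups went from 2 to 59.

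The promoters of CDKN1A and CCND3, the members with the largest rises, are shown beside that of CCNE1, which moved the other way. Each is the RefSeq window (GRCh38.p14) ahead of the listed start, cut short at the first annotated exon of the gene that it meets, 5′ to 3′ on the gene's strand. Capitals mark GC boxes, the binding sequence of SP1 and related factors (GGGCGG or its complement). The windows are chr6:36678464-36678657 (plus strand) for CDKN1A, chr6:41941849-41942058 (minus strand) for CCND3 and chr19:29811741-29811897 (plus strand) for CCNE1. Those of CDKN1A and CCND3 lie in introns of longer annotated transcripts, and that of CCNE1 lies just ahead of the gene.
CDKN1A: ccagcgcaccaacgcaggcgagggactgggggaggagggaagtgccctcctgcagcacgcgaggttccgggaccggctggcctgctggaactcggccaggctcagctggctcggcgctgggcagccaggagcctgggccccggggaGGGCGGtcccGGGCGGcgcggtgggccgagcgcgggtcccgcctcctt
CCND3: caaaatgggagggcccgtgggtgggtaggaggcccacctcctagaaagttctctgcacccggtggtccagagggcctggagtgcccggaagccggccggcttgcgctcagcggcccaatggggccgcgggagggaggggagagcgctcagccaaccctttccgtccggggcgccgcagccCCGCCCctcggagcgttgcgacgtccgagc
CCNE1: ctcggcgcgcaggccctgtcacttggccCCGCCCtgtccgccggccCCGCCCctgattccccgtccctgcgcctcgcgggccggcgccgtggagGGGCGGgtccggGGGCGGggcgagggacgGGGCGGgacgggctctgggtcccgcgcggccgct
Over the full 250 bases before the start, CDKN1A holds 4 GC boxes, CCND3 holds 2 and CCNE1 holds 7, and 42.5% of 34943 promoter windows of this length hold at least 1. None of the 3 windows holds the FOXO motif TGTTTAC (2.98% of all windows), the cAMP response half-site TGACG (21.2%), the E-box CACGTG (6.32%) or the E2F motif TTTNNCGC (5.89%), each searched on both strands. Among the other members searched, CDK4 holds 3 E-boxes and 3 GC boxes, CDK6 holds 3 GC boxes and CDKN1B holds 1. CCNE2 was left out of this search, and no window was available for CCND1, CCND2 and CDKN1C. The listed windows of CCND3, CDKN1A, CDKN1B and CCNE1 share the GC box, which is also common among all promoters. For CCND1, which rose as well, the promoter was not examined.

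The D cyclins were examined first, since they start the pathway. CCND1 (chr11:69641087-69654474, plus strand) is the D cyclin most often amplified in tumours. It was at 9.89, 11.5 and 10.2 FPKM in the sh-Luci-3d libraries, 11.01, 10.7 and 10.9 in sh-Ptbp1-3d, and 20.2, 19.0 and 19.0 in sh-Ptbp1-7d. The day 3 groups overlapped, and every day 7 library lay above every day 3 library. From sh-Ptbp1-3d to sh-Ptbp1-7d CCND1 rose by 0.83 on the log2 scale (standard error 0.084, limma adjusted p = 1.62e-05), a fold change of 1.77 that is below the fold threshold. Its 3′ end shares 497 exon bases with LTO1 on the opposite strand, and whether the counting used strand is not given in the sources used here. LTO1 was at 7.32, 7.54 and 7.49 FPKM on average in the 3 groups and did not pass the test (log2 fold change -0.02 from sh-Ptbp1-3d to sh-Ptbp1-7d, adjusted p = 0.904).

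CCND3 (chr6:41934933-42050357, minus strand) was the main D cyclin of these cells. It was at 30.0, 33.2 and 39.0 FPKM in sh-Luci-3d, 39.4, 35.7 and 38.2 in sh-Ptbp1-3d, and 74.7, 72.6 and 73.7 in sh-Ptbp1-7d. The day 7 libraries lay close to one another and far above both day 3 groups, which overlapped. CCND3 rose by 0.96 on the log2 scale from sh-Ptbp1-3d to sh-Ptbp1-7d (standard error 0.095, limma adjusted p = 1.36e-05), just short of the fold threshold. Against sh-Luci-3d the rise was 1.12 (standard error 0.095, limma adjusted p = 4.46e-06), past both thresholds. CCND3 made up 76.3% ± 2.64 of the summed D cyclin FPKM in sh-Luci-3d, 77.1% ± 0.91 in sh-Ptbp1-3d and 79.2% ± 0.428 in sh-Ptbp1-7d (SD, n = 3 each). Set against CCND1, the FPKM ratio of CCND3 was 3.25 ± 0.502, 3.47 ± 0.130 and 3.80 ± 0.0981, and the day 7 libraries lay above those of sh-Ptbp1-3d but overlapped with sh-Luci-3d. This ratio was not tested.

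CCND2 (chr12:4273772-4305350, plus strand), the D cyclin known from neural progenitors, was listed at 0 in 8 of the 9 libraries. The exception was sh-Ptbp1-3d replicate 3, with 0.906 FPKM. That library also held STMN2 at 11.5 FPKM, a growth cone protein transcript that was listed at 0 in the other 8. DCX, a marker of immature neurons, was at 2.14 FPKM there and at 0.0346 or less elsewhere, and the neuronal RNA-binding protein ELAVL4 was at 0.39 against at most 0.0192. The summed level of the 8 neuronal markers did not set this library apart. The sum was 341 to 362 FPKM in sh-Ptbp1-3d, 271 to 320 in sh-Luci-3d and 164 to 170 in sh-Ptbp1-7d, most of it TUBB3 and MAP2. These 2 moved in opposite directions from sh-Ptbp1-3d to sh-Ptbp1-7d. TUBB3 fell from 316.9 to 118.2 FPKM (log2 fold change -1.42, limma adjusted p = 6.91e-07). MAP2 rose from 20.3 to 38.9 (0.94, adjusted p = 0.00058). SNAP25 did not pass there (0.72, adjusted p = 0.0177), but it passed both thresholds in sh-Ptbp1-7d against sh-Luci-3d (1.69, adjusted p = 9.16e-05). The part of the neuronal transcripts of sh-Ptbp1-3d replicate 3 in the CCND2 value was not tested, and CCND2 is given no fold change.

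**Figure D1:**
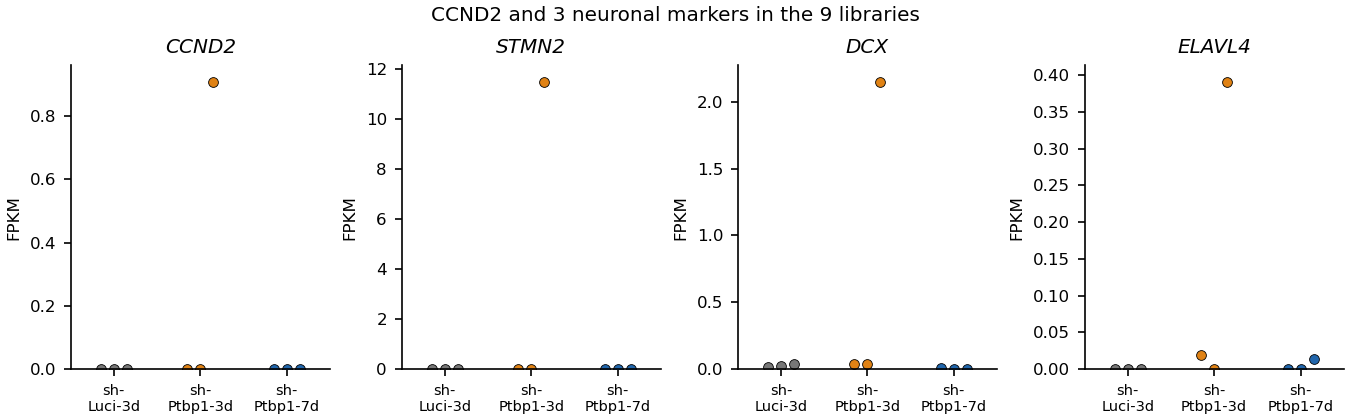
FPKM (vertical axis, linear from 0) of CCND2 and of the neuronal markers STMN2, DCX and ELAVL4 in each of the 9 libraries, by group, with 1 point per library in replicate order. In all 4 panels sh-Ptbp1-3d replicate 3 is the high point, at 0.906 FPKM for CCND2 and 11.5 for STMN2, and the other 8 libraries lie at or near 0.

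The E cyclins had lower levels than CCND1 and CCND3, and their means were lowest at day 7. CCNE1 (chr19:29811898-29824308, plus strand), the partner of CDK2 at the start of S phase, was at 6.09, 7.18 and 8.21 FPKM in sh-Luci-3d, 7.07, 6.24 and 6.36 in sh-Ptbp1-3d, and 3.57, 4.58 and 5.35 in sh-Ptbp1-7d. All day 7 libraries lay below all day 3 libraries. Against sh-Luci-3d CCNE1 fell by 0.67 on the log2 scale (standard error 0.156, limma adjusted p = 0.00467), a call that is lost when sh-Luci-3d replicate 2 or 3 or sh-Ptbp1-7d replicate 1 or 2 is left out (limma adjusted p = 0.0148, 0.0141, 0.018 and 0.0133). Against sh-Ptbp1-3d the log2 fold change was -0.55 (standard error 0.156, limma adjusted p = 0.0133), which passed only without sh-Luci-3d replicate 3 (adjusted p = 0.0086) or sh-Ptbp1-7d replicate 3 (adjusted p = 0.00592) among the fits that left out 1 library.

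CCNE2 (chromosome 8, from 94879770 to 94896678, minus strand), the second E cyclin, was the more variable gene. Its values were 4.05, 4.198 and 2.69 FPKM in sh-Luci-3d, 2.32, 4.26 and 1.97 in sh-Ptbp1-3d, and 1.95, 2.59 and 1.83 in sh-Ptbp1-7d. The sh-Ptbp1-3d libraries spanned nearly the whole range of the other groups. The log2 fold change of sh-Ptbp1-7d was -0.74 against sh-Luci-3d (standard error 0.273, limma adjusted p = 0.0437) and -0.34 against sh-Ptbp1-3d (adjusted p = 0.322), and neither passed. CCNE2 shares 1629 exon bases with INTS8 on the opposite strand, which was at 7.90, 6.504 and 7.87 FPKM on average in the 3 groups, so the level of CCNE2 is uncertain.

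The kinases showed no difference that passed the test. CDK4 (chr12:57747727-57756013, minus strand), the kinase amplified in part of glioblastomas, was at 41.5, 42.8 and 48.3 FPKM in sh-Luci-3d, 46.3, 43.2 and 41.4 in sh-Ptbp1-3d, and 40.1, 36.5 and 42.5 in sh-Ptbp1-7d. The 3 groups overlapped. From sh-Ptbp1-3d to sh-Ptbp1-7d its log2 fold change was -0.14 with a 95% interval of -0.33 to 0.06, so a fall of up to that size is not shown to be absent. TSPAN31, on the opposite strand with 1369 shared exon bases, was at 7.36 FPKM in sh-Ptbp1-3d and 10.4 in sh-Ptbp1-7d (log2 fold change 0.49, limma adjusted p = 0.00439). The share of its reads in the CDK4 value was not tested.

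CDK6 (chr7:92604921-92836594, minus strand), the other partner of the D cyclins, was at 10.7, 10.6 and 6.79 FPKM in sh-Luci-3d, 8.996, 8.97 and 8.44 in sh-Ptbp1-3d, and 11.4, 10.6 and 7.75 in sh-Ptbp1-7d. One library in each of the sh-Luci-3d and sh-Ptbp1-7d groups was low, and the groups overlapped. The log2 fold change from sh-Ptbp1-3d to sh-Ptbp1-7d was 0.15 with a 95% interval of -0.26 to 0.56. That interval is wider than the one of CDK4.

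**Figure D2:**
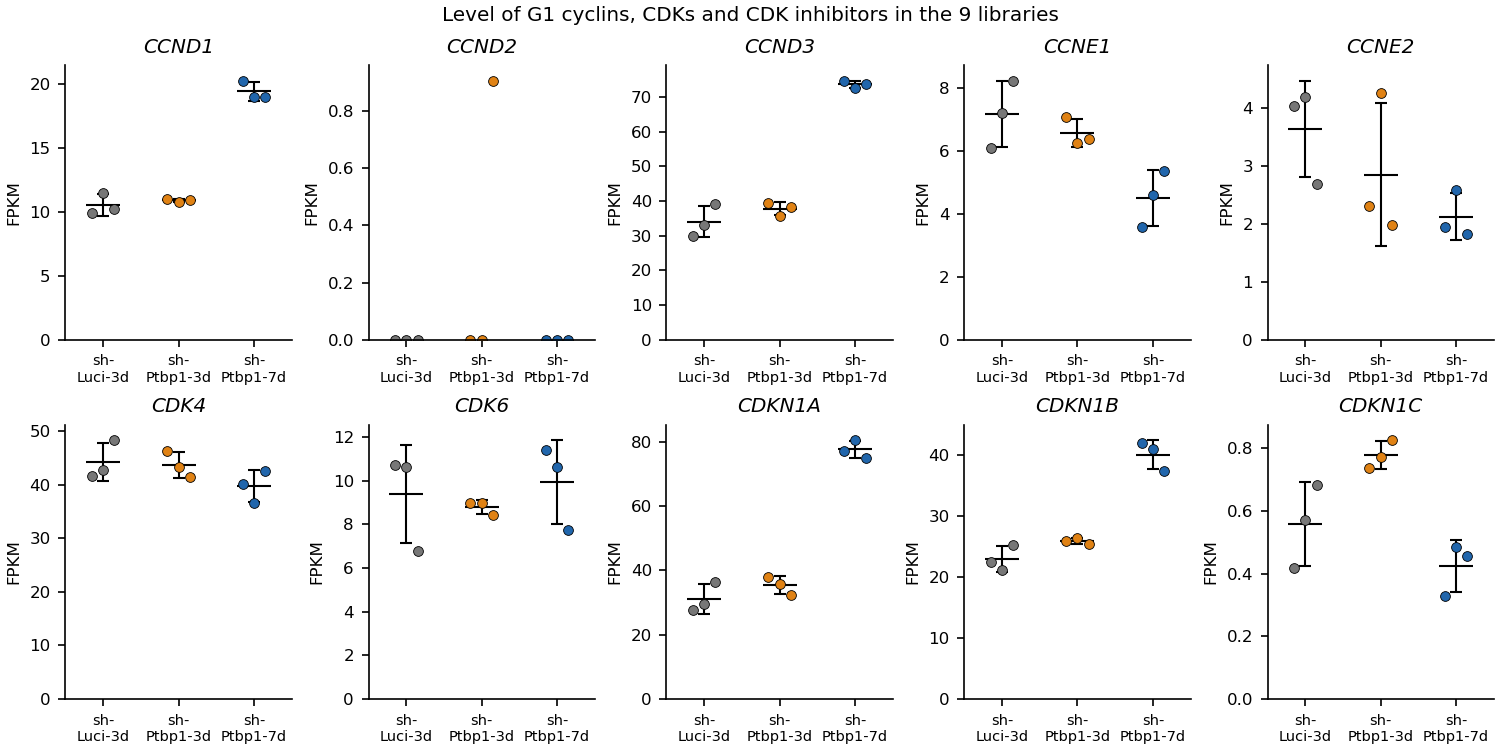
FPKM (vertical axis, linear from 0) of the 10 genes in the 9 libraries, with 1 point per library in replicate order, and horizontal and vertical bars for the mean and SD of 3 libraries (no mean for CCND2, at 0 in 8 libraries). CCND1, CCND3, CDKN1A and CDKN1B lie higher in all 3 sh-Ptbp1-7d libraries than in all 6 of day 3, CCNE1 lies lower, and CDK4 and CDK6 overlap between groups.

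Of the inhibitors, CDKN1A (chr6:36676460-36687339, plus strand), which encodes p21, the inhibitor of CDK2 complexes and a direct target of p53, showed the largest rise among the 10 genes. It was at 27.6, 29.5 and 36.5 FPKM in sh-Luci-3d, 38.1, 35.8 and 32.4 in sh-Ptbp1-3d, and 77.3, 80.6 and 75.1 in sh-Ptbp1-7d. The lowest day 7 value, 75.1 FPKM, lay far above the highest day 3 value, 38.1 FPKM, and the day 3 groups overlapped. From sh-Ptbp1-3d to sh-Ptbp1-7d CDKN1A rose by 1.13 on the log2 scale (standard error 0.107, limma adjusted p = 9.76e-06), and against sh-Luci-3d by 1.32 (standard error 0.107, adjusted p = 3.13e-06). Both passed both thresholds. Between the day 3 groups the log2 fold change was 0.19 (standard error 0.107, adjusted p = 0.751). Without sh-Luci-3d replicate 3 it was 0.31 (adjusted p = 0.0463), so 1 control library decides whether this difference passes the FDR threshold. That fit also took the genes past this threshold over the whole table from 5 to 993, so the change is not particular to CDKN1A.

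CDKN1B (chr12:12715058-12722371, plus strand), which encodes p27, was at 22.5, 21.1 and 25.2 FPKM in sh-Luci-3d, 25.9, 26.4 and 25.3 in sh-Ptbp1-3d, and 41.8, 40.9 and 37.3 in sh-Ptbp1-7d. The 3 groups did not overlap, with the step between the day 3 groups much smaller than the step to day 7. CDKN1B rose by 0.62 on the log2 scale from sh-Ptbp1-3d to sh-Ptbp1-7d (standard error 0.085, limma adjusted p = 0.000139) and by 0.80 from sh-Luci-3d (adjusted p = 2.22e-05). Between the day 3 groups it was 0.18 (adjusted p = 0.714). The ratio of CDKN1A to CDKN1B FPKM was 1.36 ± 0.116 in sh-Luci-3d, 1.37 ± 0.0964 in sh-Ptbp1-3d and 1.94 ± 0.0867 in sh-Ptbp1-7d (SD, n = 3 each), so p21 transcripts gained on p27 transcripts by day 7.

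CDKN1C (chr11:2883213-2885773, minus strand), an imprinted gene that encodes p57, was close to the lower end of the measured range. Its values were 0.416, 0.571 and 0.683 FPKM in sh-Luci-3d, 0.736, 0.773 and 0.826 in sh-Ptbp1-3d, and 0.329, 0.483 and 0.458 in sh-Ptbp1-7d. The sh-Ptbp1-3d libraries were the highest and did not overlap with the other 2 groups. The log2 fold change was 0.44 between the day 3 groups (limma adjusted p = 0.737) and -0.76 from sh-Ptbp1-3d to sh-Ptbp1-7d (standard error 0.228, adjusted p = 0.0176), and neither passed. CDKN1C was thus the only inhibitor of the 3 whose day 7 values lay below those of sh-Ptbp1-3d.

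Counted over the 10 genes, sh-Ptbp1-3d against sh-Luci-3d gave 0 past both thresholds, 0 past the FDR threshold and 0 at an unadjusted limma p under 0.05. Among all genes tested 0.0129% passed both thresholds and 0.0322% passed the FDR threshold, so this comparison called almost nothing. The libraries of the day 3 groups did not overlap for 2 of the 10 genes, CDKN1B and CDKN1C, beside 10.8% of all genes. From sh-Ptbp1-3d to sh-Ptbp1-7d 1 gene (CDKN1A) passed both thresholds, beside 14.2% of all genes. The FDR threshold was passed by 4, beside 35.8%, and all 4 were higher, beside 20.3% of all genes higher and 15.5% lower. The groups did not overlap for 6 of the 10, beside 62.3% of all genes.

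Against sh-Luci-3d, sh-Ptbp1-7d gave 2 genes past both thresholds (CCND3 and CDKN1A), beside 14.6% of all genes. The FDR threshold was passed by 5, beside 35.6%, with 4 higher (background 20.6%) and 1 lower (background 15.0%). The groups did not overlap for 6 of the 10, beside 55.9%. The 2 comparisons with sh-Ptbp1-7d share these libraries and are not independent of each other. Day 7 differed widely from day 3 over the whole table, and the median log2 fold change of 9 members (CCND2 left out) was 0.15 from sh-Ptbp1-3d to sh-Ptbp1-7d beside 0.09 over all genes. Relative to that median, the rises were 1.04 for CDKN1A, 0.87 for CCND3, 0.73 for CCND1 and 0.53 for CDKN1B on the log2 scale.

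**Figure D3:**
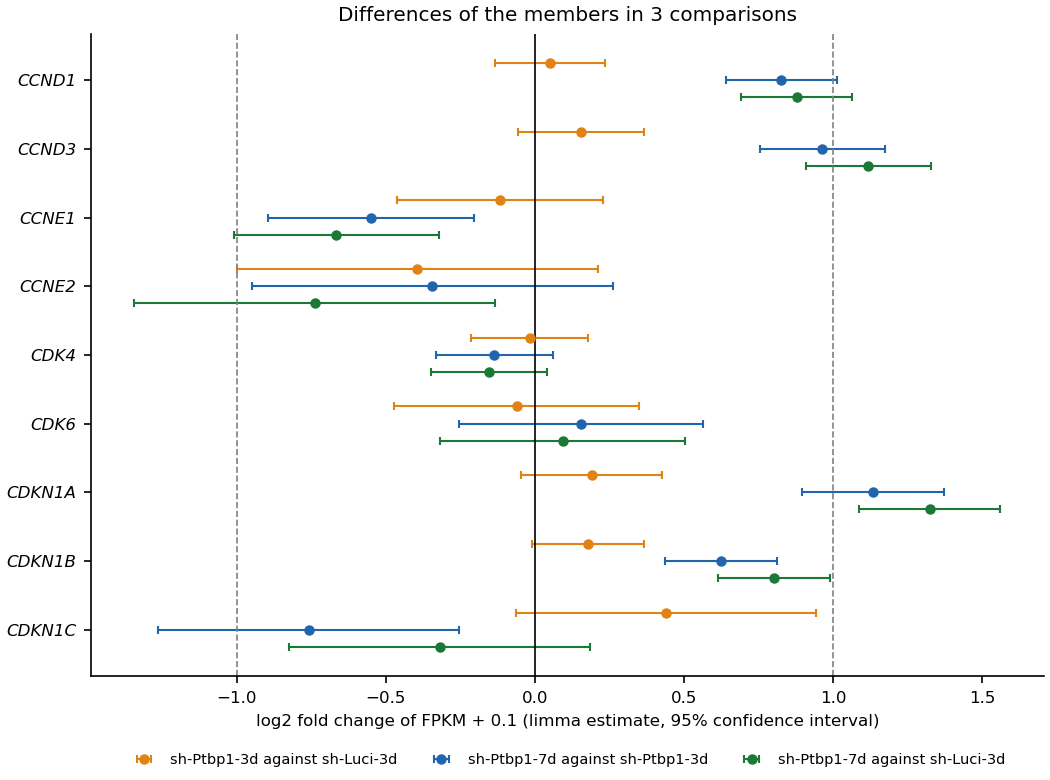
Log2 fold change (horizontal axis) of 9 genes in the 3 comparisons, with points for limma estimates, bars for 95% confidence intervals and dashed lines at a fold change of 2 in either direction. All day 3 intervals include 0, while CCND1, CCND3, CDKN1A and CDKN1B lie above 0 in both comparisons with sh-Ptbp1-7d, from 0.62 for CDKN1B to 1.32 for CDKN1A.

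The order of the levels changed between day 3 and day 7. In sh-Luci-3d and in sh-Ptbp1-3d CDK4 was the most abundant of the 10 transcripts, followed by CCND3, CDKN1A and CDKN1B, and then by CCND1, CDK6, CCNE1, CCNE2, CDKN1C and CCND2. Neighbours whose libraries overlapped were CCND3 and CDKN1A in both groups, CCND1 and CDK6 and CDK6 and CCNE1 in sh-Luci-3d, and CDKN1C and CCND2 in sh-Ptbp1-3d. In sh-Ptbp1-7d CDKN1A came first at 77.7 ± 2.76 FPKM and CCND3 second at 73.7 ± 1.04 (SD, n = 3 each), with no overlap. CDKN1B at 40.0 ± 2.38 and CDK4 at 39.7 ± 3.00 overlapped, and the rest kept their places.

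Sums over each family show the same shift, as a description without a test. The D cyclins summed to 44.6 ± 4.66 FPKM in sh-Luci-3d, 49.0 ± 2.18 in sh-Ptbp1-3d and 93.1 ± 1.70 in sh-Ptbp1-7d (SD, n = 3 each). CIP/KIP inhibitors summed to 54.7 ± 6.72, 62.1 ± 3.17 and 118.1 ± 4.67 FPKM, while CDK4 and CDK6 together stayed between 47.2 and 55.3 FPKM in all 9 libraries. The sums of the inhibitors and of the D cyclins went up by like factors, and the ratio of the former to the latter was 1.23 ± 0.0697, 1.27 ± 0.0934 and 1.27 ± 0.057. Set against the kinases, the inhibitors went from 1.02 ± 0.099 and 1.18 ± 0.0188 at day 3 to 2.38 ± 0.179 at day 7. The E cyclins summed to 10.8 ± 0.624, 9.41 ± 1.08 and 6.63 ± 0.954 FPKM, so the ratio of D to E cyclins went from 4.13 ± 0.339 and 5.26 ± 0.794 to 14.3 ± 2.51.

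**Figure D4:**
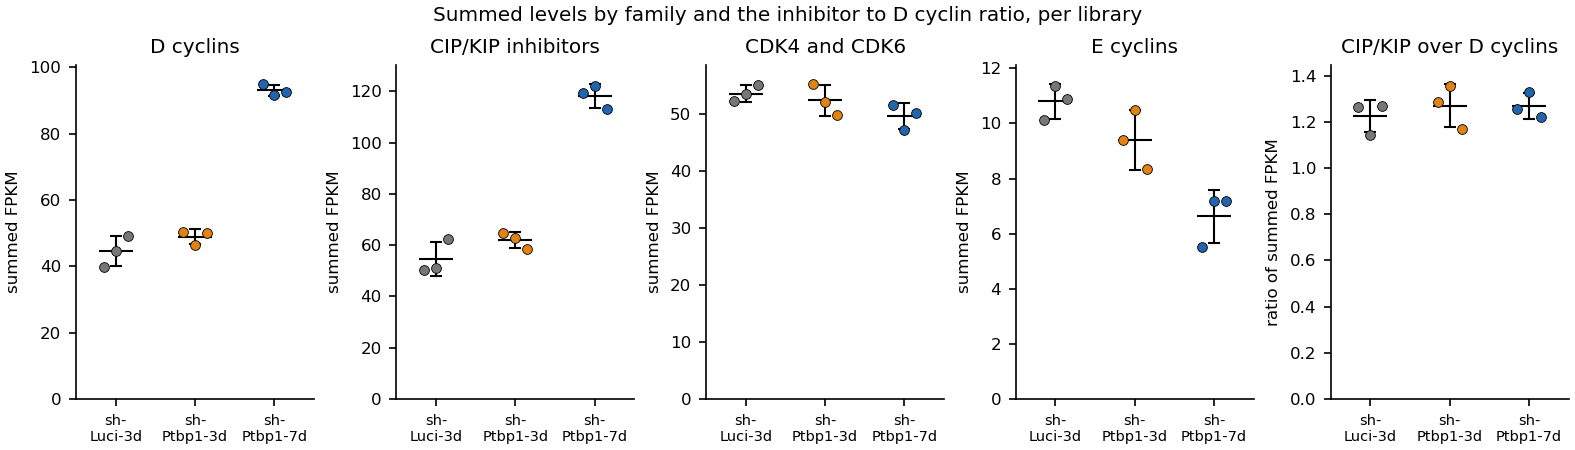
Summed FPKM of the D cyclins, the CIP/KIP inhibitors, CDK4 with CDK6 and the E cyclins, and the ratio of the inhibitors to the D cyclins (vertical axes, linear from 0), with 1 point per library in replicate order and bars for the mean and SD of 3 libraries. The D cyclin and inhibitor sums are higher in all sh-Ptbp1-7d libraries, the E cyclin sum is lower, and the ratio in the last panel stays between 1.14 and 1.36 in all 9.

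Most INK4 inhibitors, which bind CDK4 and CDK6 alone, were listed at or near 0. Gene copy number was not examined here, so a lost gene and one that is not transcribed cannot be told apart. CDKN2A and CDKN2C were listed at 0 in 8 libraries each, with 0.1 and 0.112 FPKM in 1 sh-Ptbp1-3d library each, and CDKN2B was listed at 0 in all 9. CDKN2D (p19) was the exception, with 8.55 to 8.87 FPKM in sh-Ptbp1-7d, 13.6 to 14.5 in sh-Ptbp1-3d and 9.81 to 14.4 in sh-Luci-3d. It fell by 0.69 on the log2 scale from sh-Ptbp1-3d to sh-Ptbp1-7d (standard error 0.136, limma adjusted p = 0.00165). The expressed INK4 gene thus moved opposite to CDKN1A and CDKN1B. Against sh-Luci-3d the log2 fold change of CDKN2D was -0.36 and did not pass.

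CDK2, the kinase that E cyclins activate and p21 inhibits, was lower at day 7. It was at 33.6, 33.7 and 31.3 FPKM in sh-Luci-3d, 32.5, 31.8 and 32.0 in sh-Ptbp1-3d, and 21.5, 20.7 and 22.4 in sh-Ptbp1-7d. It fell by 0.57 on the log2 scale from sh-Ptbp1-3d to sh-Ptbp1-7d (standard error 0.07, limma adjusted p = 6.53e-05). Of the 6 genes of this list 4 fell and 1 rose (3 and 0 without sh-Ptbp1-3d replicate 3), beside 15.5% of all genes lower and 20.3% higher. Those that fell were CDK2, CCNA2 (-1.23, its S phase cyclin), CCNH (-0.44) and MNAT1 (-0.47), and CDK7 rose (0.43). CDC25A, a phosphatase that activates CDK2, did not pass (log2 fold change -0.46, limma adjusted p = 0.0907). CCNH, MNAT1 and CDK7 form the kinase that activates CDKs. The ratio of CDKN1A to CDK2 FPKM was 0.953 ± 0.186 in sh-Luci-3d, 1.103 ± 0.0817 in sh-Ptbp1-3d and 3.61 ± 0.266 in sh-Ptbp1-7d (SD, n = 3 each).

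E2F factors moved in both directions, and no pocket protein passed the test. From sh-Ptbp1-3d to sh-Ptbp1-7d the pocket proteins RB1, RBL1 and RBL2 had log2 fold changes of 0.12, -0.32 and 0.27 (limma adjusted p = 0.461, 0.163 and 0.0461). Of the 13 genes of both kinds 2 rose and 4 fell from sh-Ptbp1-3d to sh-Ptbp1-7d (1 and 4 without sh-Ptbp1-3d replicate 3). The shares over all genes were 20.3% higher and 15.5% lower in the main fit. E2F5, a factor that binds pocket proteins, rose by 1.38 on the log2 scale (standard error 0.105, limma adjusted p = 2.06e-06), and E2F4 by 0.29 (adjusted p = 0.00806). E2F1 and E2F2 fell by 0.73 (adjusted p = 0.000688) and 0.86 (adjusted p = 0.000553). E2F8 fell by 0.74 (adjusted p = 0.00394), and the E2F partner TFDP1 fell by 0.34 (adjusted p = 0.00301). E2F3, E2F6, E2F7 and TFDP2 did not pass (0.19, 0.66, -0.20 and 0.43, adjusted p = 0.205, 0.0322, 0.373 and 0.0321). The median of the list was 0.12. In the list of the DREAM complex, which represses cycle genes in resting cells, and its mitotic counterparts, 3 of 8 genes rose (LIN52 0.76, DYRK1A 0.61 and LIN37 0.43) and 2 fell (MYBL2 -0.99 and FOXM1 -1.61). LIN52 and LIN37 are subunits of the complex and DYRK1A is a kinase that promotes its assembly. MYBL2 and FOXM1 are mitotic activators. Whether the amount of the complex changed was not tested. The other subunits in the list did not pass (LIN9 0.16, LIN54 0.13 and RBBP4 -0.12, limma adjusted p = 0.363, 0.469 and 0.353). Without sh-Ptbp1-3d replicate 3, 1 of the 8 rose and 2 fell. The main counts of this list also stand beside 20.3% of all genes higher and 15.5% lower.

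Among E2F target genes of S phase, 18 of 20 fell and 0 rose from sh-Ptbp1-3d to sh-Ptbp1-7d (16 and 0 without sh-Ptbp1-3d replicate 3). This stands beside 15.5% of all genes lower and 20.3% higher. The median log2 fold change of the list was -0.79 beside 0.09 over all genes. TYMS, which makes thymidylate, went from 144.7 to 50.1 FPKM on average (log2 fold change -1.53, limma adjusted p = 9.64e-08). TK1, the thymidine kinase of S phase, went from 123.8 to 30.3 FPKM (log2 fold change -2.03, adjusted p = 4.3e-07). MCM6 and MCM4, subunits of the replicative helicase, fell by 0.91 and 0.83. All 4 proliferation markers (MKI67, TOP2A, CCNB1 and CDK1) fell, by 0.56 to 1.49. Between the day 3 groups 0 of the 20 and 0 of the 4 passed.

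Many G1 proteins are also set by degradation, so the subunits of the ubiquitin ligases that mark them were examined. From sh-Ptbp1-3d to sh-Ptbp1-7d 2 of 8 rose and 1 fell (2 and 2 without sh-Luci-3d replicate 3). Over all genes 20.3% were higher and 15.5% lower in the main fit. AMBRA1 and FBXO31, which lead D cyclins to degradation, rose by 0.73 (limma adjusted p = 0.000105) and 0.79 (adjusted p = 0.000206) on the log2 scale. CKS1B, the cofactor with which SKP2 recognises p27, fell by 1.07 (adjusted p = 2.73e-05), and SKP2 itself had a log2 fold change of -0.33 (adjusted p = 0.0385), which did not pass. Against sh-Luci-3d both fell, CKS1B by 0.87 (adjusted p = 0.000123) and SKP2 by 0.49 (adjusted p = 0.00566). The shared subunits SKP1, CUL1 and RBX1 and the cyclin E receptor FBXW7 had log2 fold changes of 0.12, -0.02, -0.24 and 0.42 from sh-Ptbp1-3d to sh-Ptbp1-7d and did not pass (adjusted p = 0.548, 0.885, 0.0204 and 0.0541).

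CDKN1A is a p53 target, and other p53 target genes were set beside it. Of 19 tested genes 5 rose and 2 fell from sh-Ptbp1-3d to sh-Ptbp1-7d (6 and 4 without sh-Luci-3d replicate 3), beside 20.3% of all genes higher and 15.5% lower, and their log2 fold changes ranged from -1.28 to 2.56 around a median of -0.001. BTG2, an antiproliferative gene, rose by 2.56 (limma adjusted p = 5.44e-07), TNFRSF10B, a death receptor, by 1.37 (adjusted p = 5.28e-07) and SESN2, a stress response gene, by 0.85 (adjusted p = 3.06e-05). DDB2, a DNA repair gene, fell by 1.07 (adjusted p = 9.32e-06).

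**Figure D5:**
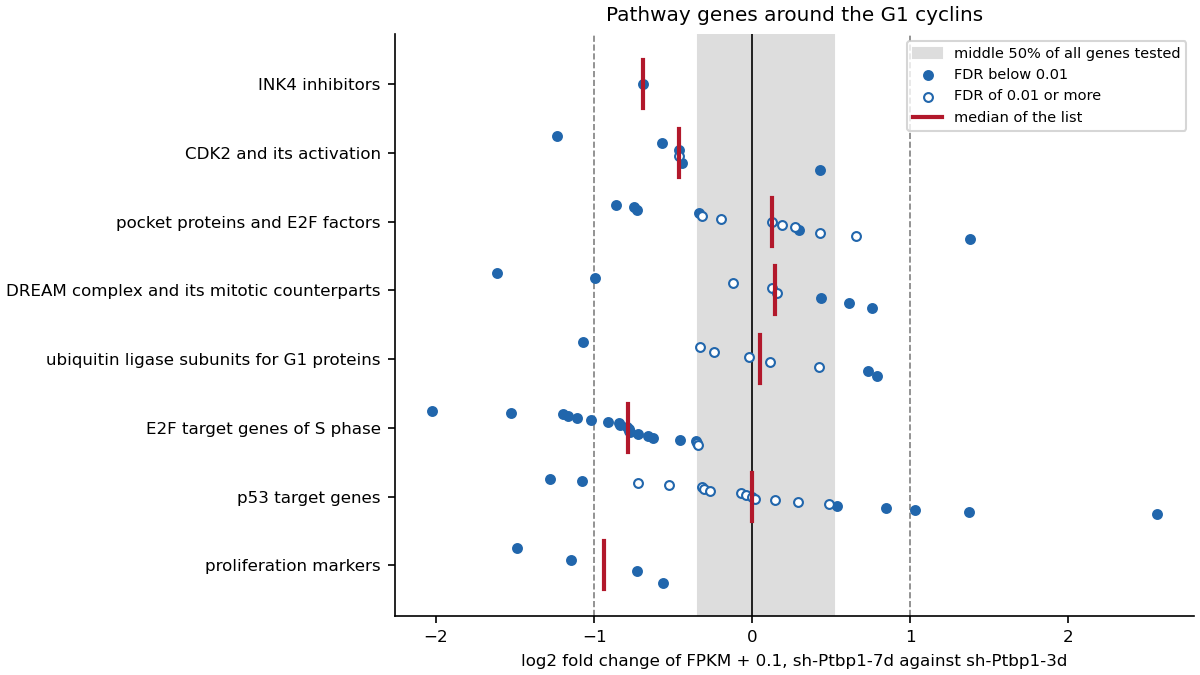
Log2 fold change (horizontal axis) of sh-Ptbp1-7d against sh-Ptbp1-3d for each tested gene of 8 lists around the G1 cyclins, with filled points for an FDR below 0.01, red bars for list medians, a grey band for the middle 50% of all genes and dashed lines at a fold change of 2. The E2F target genes all lie below 0 with a median of -0.79, while the p53 target genes spread from -1.28 to 2.56 around a median near 0.

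Patterns most like those of the 2 members past both thresholds were found by Pearson's r over the 9 libraries among 11339 genes, as a description. CCND3 was closest to RASSF4 (r = 0.9975), at 1.71, 1.89 and 3.10 FPKM on average in the 3 groups, and to SERP1 (r = 0.9969), at 21.5, 23.3 and 43.2 FPKM. CDKN1A was closest to ETV4 (r = 0.9976), at 0.599, 0.757 and 5.32 FPKM, and to DENND2B (r = 0.9975), at 14.9, 15.8 and 27.2 FPKM. Each r rests on the gap between the 3 libraries of day 7 and the 6 of day 3.

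Markers of other cells were examined beside these results. Of 8 blood and immune markers, 2 were listed at 0 in all libraries of sh-Ptbp1-7d and 4 in those of each day 3 group. Their sum was 10.3 to 11.5 FPKM in sh-Luci-3d, 10.7 to 11.4 in sh-Ptbp1-3d and 16.1 to 19.0 in sh-Ptbp1-7d, nearly all of it CD68, a lysosomal protein gene. The summed level of the glioma cell markers was 4418 to 4543 FPKM in sh-Luci-3d, 4528 to 4836 in sh-Ptbp1-3d and 1352 to 1477 in sh-Ptbp1-7d, most of it VIM. Their part in the results was not tested.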

How the data were processed

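RNA-seq was measured in 9 libraries of U251 cells, grouped by their labels. For each gene and library the authors deposited an FPKM value, made by filtering Illumina HiSeq reads and comparing them to the reference sequence; HISAT2 and GRCh38 are named in the submitters' processing notes, and the counting program and annotation are not given in the sources used here. The authors also deposited positions of loci assembled by StringTie (another kind of value), none of which overlaps a member. No whole-read steps were found among the low FPKM values, which leaves the depth unknown, and count models were not applied. Of 19932 gene symbols 97.6% are in GENCODE v29, from which positions were taken.

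From the FPKM values, log2(FPKM + 0.1) of the 15551 entries averaging 0.1 FPKM or more was fitted with limma 3.58.1 (R 4.3.3), with an intensity trend and Benjamini-Hochberg adjustment over all entries tested. Fold changes on this scale understate those of low genes. The FDR thresholds of 0.05 and 0.01 and the fold threshold of 2 are those of the study. Members and lists were chosen with earlier results of these data known. All 10 members were named. Genes of lists of up to 8 could be named, as could the 4 with the lowest p of longer lists and the 2 most correlated with each member past both thresholds. In the list of pocket proteins and E2F factors every gene was named. Cell type markers and overlapping genes were named where a result touched them. Alternatives changed the pseudocount, filter, scaling, thresholds, trend, block, assembled loci, the groups fitted and the libraries kept. Promoter windows came from RefSeq. Plots were made in Python 3.11.15 using matplotlib 3.10.9.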

Additional observations from a re-analysis of the deposited data

How the results depend on the processing

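The rises of CCND1, CCND3, CDKN1A and CDKN1B in both comparisons with sh-Ptbp1-7d kept their direction and FDR call in all 21 alternatives each. The fall of CCNE1 against sh-Luci-3d passed in 13 of 21 (adjusted p 0.0025 to 0.0219). Between the 2 sh-Ptbp1 groups CCNE1 passed in 4 of 21 and CDKN1C in 2 of 20 alternatives. CDKN1A between the day 3 groups passed the FDR threshold in 2 of 21, both without sh-Luci-3d replicate 3. From sh-Ptbp1-3d to sh-Ptbp1-7d, 4 members were called without a fold threshold, and 2 as TPM and with quantile normalization, where CCND3 reached 1.07 and 1.01 on the log2 scale. Against sh-Luci-3d, 5 were called without a fold threshold. Between the day 3 groups the count was 0 in all 23 alternatives. Leaving out single libraries left the counts at 0, 1 and 2.

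Directions that reversed were those of small differences, none past the FDR threshold. CDK6 in sh-Ptbp1-7d against sh-Luci-3d (0.09) became -0.0065 with median-ratio scaling and -0.0065 with quantile normalization, -0.12 without sh-Luci-3d replicate 3 and -0.016 without sh-Ptbp1-7d replicate 1. Between the day 3 groups CDK6 became 0.049 and 0.043 without sh-Luci-3d replicates 1 and 2, and CDK4 became 0.047 without sh-Luci-3d replicate 3 and 0.019 without sh-Ptbp1-3d replicate 3. With both of these libraries left out, an alternative chosen after seeing the data, CDK4 became 0.085 and CCNE1 0.0058 between the day 3 groups. In that fit CDK6 in sh-Ptbp1-7d against sh-Luci-3d became -0.12. Over the libraries left out one at a time these values ranged from -0.12 to 0.26 for CDK6 against sh-Luci-3d at day 7, and at day 3 from -0.28 to 0.049 for CDK6, from -0.062 to 0.047 for CDK4 and, with both left out included, from -0.23 to 0.0058 for CCNE1. The cause was not tested.

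The replicate number as a block left the member counts at 0, 1 and 2, took CCNE2 in sh-Ptbp1-7d against sh-Luci-3d past the FDR threshold (adjusted p = 0.00702) and moved the genes called from sh-Ptbp1-3d to sh-Ptbp1-7d from 2211 to 2140. Same-numbered libraries did not deviate together (r from -0.032 to 0.051), so the numbers were not taken as pairs. With a pseudocount of 1 the called genes were 1255 in place of 2211, and 1269 in place of 2271 against sh-Luci-3d. Quantile normalization moved the median of all genes from 0.09 to -0.0087 and TPM to 0.191. Unknown depth leaves the precision of the low genes CCND2 and CDKN1C open to counting error that was not measured.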
